A study of Homo sapiens with 6 samples.

Results

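Genes that encode ligands of immune checkpoint receptors and of natural killer (NK) cell receptors were followed between olaparib and DMSO libraries of a colorectal cancer line. They were chosen by name and are CD274, PDCD1LG2, CD276, CD47, PVR, NECTIN2, MICA, MICB, ULBP2 and ULBP3, 10 of the 39396 gene symbols in the count table. The 6 RNA-seq libraries are all labelled RKO, a line from a human colorectal carcinoma, with genotype WT. Of these, 3 are labelled Olaparib, an inhibitor of PARP enzymes, and 3 are labelled DMSO, its solvent. All were plated 24 h before treatment. The sources used here give neither the olaparib dose nor the time under drug. They also do not say whether the replicates are separate cultures, so the p-values reflect the spread among these 6 libraries alone, and that spread may be technical. All 10 genes passed the filter on low counts, PDCD1LG2 only through the olaparib libraries, and all 10 differed between the groups, 6 higher and 4 lower in olaparib. That count is read against a background in which 75.7% of the 17078 genes tested were called, 35.4% higher and 40.3% lower.

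The products of these genes sit on the surface of a tumour cell and are read by lymphocytes and macrophages. CD274 (PD-L1) and PDCD1LG2 (PD-L2) engage PD-1 on T cells and restrain them, and CD276 (B7-H3) is a relative of both in the B7 family whose receptor is less settled. CD47 binds SIRPA on macrophages and inhibits phagocytosis. PVR (CD155) and NECTIN2 (CD112) are adhesion molecules of the nectin family, bound by the activating receptor DNAM-1 (CD226) and by the inhibitory receptor TIGIT, with CD96 and PVRIG as further receptors. MICA, MICB, ULBP2 and ULBP3 are distant relatives of MHC class I that are induced by cell stress and bind NKG2D, an activating receptor of NK cells and of cytotoxic T cells.

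Promoter windows from RefSeq (GRCh38.p14, 250 bases before to 50 after a transcript start) were matched by symbol for 9 members, and PDCD1LG2 had no entry. The first one shown belongs to CD274, a gene known to be induced by interferon. Capitals mark the core letters of the interferon-stimulated response element, searched on both strands, which occurred as 2 overlapping matches on the minus strand, the first at -208 relative to the start. The window lies on the plus strand at chr9:5450292-5450591.
CD274: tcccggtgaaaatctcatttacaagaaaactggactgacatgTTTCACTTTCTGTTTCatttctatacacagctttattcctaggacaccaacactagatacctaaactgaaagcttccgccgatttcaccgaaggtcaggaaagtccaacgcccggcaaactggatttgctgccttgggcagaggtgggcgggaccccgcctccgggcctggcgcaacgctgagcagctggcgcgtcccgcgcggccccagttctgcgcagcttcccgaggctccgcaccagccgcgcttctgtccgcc
Of 35116 windows of the same length, 3.57% held this motif, and none of the other members' windows did. The CD274 window also held the STAT dimer letters TTCNNNGAA at -125, which 7.66% of windows hold.

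MICA and MICB are shown because the 2 genes are close copies that moved in the same direction. Capitals mark GAANNTTC, the core letters of a heat shock element, which reads the same on both strands. The windows are chr6:31403345-31403644 and chr6:31497895-31498194, both on the plus strand.
MICA: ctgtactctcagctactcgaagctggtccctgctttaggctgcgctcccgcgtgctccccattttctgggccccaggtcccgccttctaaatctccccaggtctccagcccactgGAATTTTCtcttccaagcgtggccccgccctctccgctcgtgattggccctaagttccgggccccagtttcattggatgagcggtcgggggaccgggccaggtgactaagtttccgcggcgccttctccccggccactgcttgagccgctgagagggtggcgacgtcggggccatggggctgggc
MICB: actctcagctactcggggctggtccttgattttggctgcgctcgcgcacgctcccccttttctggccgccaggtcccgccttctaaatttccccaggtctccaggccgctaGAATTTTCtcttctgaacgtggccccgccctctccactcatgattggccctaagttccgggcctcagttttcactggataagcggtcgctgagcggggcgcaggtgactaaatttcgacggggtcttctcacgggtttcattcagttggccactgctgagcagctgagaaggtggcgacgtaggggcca
The windows were 87.0% identical over 284 aligned bases, and each held 1 match, at -135 in MICA and at -139 in MICB. The motif occurred in 6.77% of all windows and in no other member's window. For both genes these RefSeq starts lie downstream of the gene start in GENCODE.

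ULBP2 and ULBP3, which lie in 1 cluster and both moved down, are shown with the letters TGANTCA in capitals, searched on both strands. The windows are chr6:149941764-149942063 on the plus strand and chr6:150069072-150069371 on the minus strand.
ULBP2: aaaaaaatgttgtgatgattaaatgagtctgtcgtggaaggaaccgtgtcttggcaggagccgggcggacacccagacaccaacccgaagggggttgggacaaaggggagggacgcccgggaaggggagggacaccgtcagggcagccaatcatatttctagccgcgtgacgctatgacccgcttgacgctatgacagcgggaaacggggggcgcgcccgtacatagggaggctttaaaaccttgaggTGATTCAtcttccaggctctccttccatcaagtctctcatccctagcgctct
ULBP3: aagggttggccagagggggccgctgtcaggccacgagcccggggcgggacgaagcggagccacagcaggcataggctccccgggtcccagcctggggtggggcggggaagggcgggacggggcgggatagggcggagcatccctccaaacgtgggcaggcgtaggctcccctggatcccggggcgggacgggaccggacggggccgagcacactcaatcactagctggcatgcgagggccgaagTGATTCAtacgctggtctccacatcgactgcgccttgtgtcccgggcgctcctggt
Each held the same match, TGATTCA, at -2 in ULBP2 and at -6 in ULBP3, against 7.71% of all windows with TGANTCA, and no other member's window held it. The AP-1 consensus is a narrower form of these letters and neither match is it. The GC box letters GGGCGG, on either strand, occurred 7 times in 1 window of CD276 and 2 times in its other window. They occurred 6 times in ULBP3, 6 times in CD47 and 3 times in NECTIN2. CD274, MICA, MICB and ULBP2 held 1 match each and PVR none, and 45.0% of all windows hold these letters. A match describes the reference letters and does not show that a factor was bound.

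The libraries held 28715138 to 42423785 counts. The labelled cell type was checked against markers. KRT8 and KRT18, keratins of simple epithelia, were abundant in both groups (581 ± 90.2 and 400 ± 64.5 CPM in olaparib, 175 ± 23.3 and 75.3 ± 10.6 CPM in DMSO; CPM scale each library's counts to its TMM-adjusted total, with SD, n = 3). EPCAM was low (4.67 ± 1.66 CPM in olaparib and 0.999 ± 0.129 CPM in DMSO), CDH1 was below 1 CPM on average in both groups, and VIL1, CDX1, GPA33, KRT19, KRT20 and CEACAM5 were at or near 0 in both. All 7 genes of a list of markers of HEK293, a line from human embryonic kidney, were lower in olaparib, with a summed level of 0.0698 to 0.212 CPM against 231 to 417 CPM, and PAX2, NEFL and LIN28B were without a count in olaparib. The intestinal factor CDX2 was likewise absent from the olaparib counts, with 24.5 ± 2.0 CPM in DMSO. A difference in cell source and an effect of treatment cannot be told apart in these libraries, so each difference below is between libraries as labelled.

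The 3 members of the B7 family were higher in olaparib. Another B7 ligand, ICOSLG, picked out after its values were seen, was lower (1.13 ± 0.108 against 2.89 ± 0.639 CPM, edgeR log2 -1.36 ± 0.29, SE, adjusted p = 0.00108). CD274 stood at 7.01, 3.85 and 3.15 CPM in olaparib replicates 1, 2 and 3, and at 1.04, 0.809 and 1.70 CPM in the DMSO replicates. Its lowest olaparib library was above its highest DMSO library, and olaparib replicate 1 stood above the other two. CD274 was 3.89-fold higher (log2 1.96 ± 0.37, SE, adjusted p = 0.000394) in the quasi-likelihood test of edgeR, with p-values adjusted over all genes tested by the Benjamini-Hochberg method. In bulk RNA, more cells with a transcript and more of it per cell cannot be told apart. Without olaparib replicate 1 the log2 value was 1.55 (edgeR adjusted p = 0.00213).

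PDCD1LG2 was scarcely detected. It held 55 counts over the olaparib libraries (18, 13 and 24) and 4 over the DMSO libraries (0, 1 and 3). In CPM these are 0.628, 0.425 and 0.849 against 0, 0.0337 and 0.0678, so the groups did not overlap. PDCD1LG2 passed the filter on low counts only through the olaparib libraries, so a difference in its favour there was built in, and its call supports no count of members. The ratio of scaled counts was 18.2 (95% exact counting interval 6.73 to 69.3, which covers counting error only), and edgeR gave log2 4.06 ± 0.74 (SE, adjusted p = 0.000301). With so few counts the fold depended on single DMSO libraries, with log2 5.13 without DMSO replicate 3 and 3.46 without DMSO replicate 1 (edgeR adjusted p = 0.00158 and 0.00154).

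CD276 was the most abundant of the members in olaparib, whether in CPM or per length. It reached 220, 240 and 226 CPM in olaparib and 135, 104 and 103 CPM in DMSO. DMSO replicate 1 was the highest of its group and still below every olaparib library. CD276 was 2.01-fold higher (edgeR log2 1.00 ± 0.12, SE, adjusted p = 9.49e-06).

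CD47 showed the smallest difference of the members. Its level was 80.6, 90.9 and 93.1 CPM in olaparib and 65.5, 61.4 and 58.3 CPM in DMSO. The groups did not overlap, and CD47 was 1.43-fold higher (edgeR log2 0.51 ± 0.10, SE, adjusted p = 0.000531). Of all genes tested, 30.1% differed by less than CD47, in either direction.

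PVR and NECTIN2 went the other way. PVR stood at 57.1, 64.4 and 61.8 CPM in olaparib and at 93.8, 115 and 118 CPM in DMSO, without overlap, and was 1.78-fold lower (edgeR log2 -0.83 ± 0.11, SE, adjusted p = 2.47e-05). NECTIN2 was lower by a larger factor. It fell from 83.6, 76.5 and 69.6 CPM in DMSO to 24.0, 19.7 and 23.3 CPM in olaparib. Every olaparib library held less than each DMSO library by a wide margin, and the fold was 3.43 (edgeR log2 -1.78 ± 0.12, SE, adjusted p = 5.39e-08). Of all genes tested, 72.5% differed by less than NECTIN2.

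Among the 4 NKG2D ligands, MICA and MICB were higher in olaparib and ULBP2 and ULBP3 lower. MICA stood at 89.6, 94.5 and 96.0 CPM in olaparib and at 55.4, 62.1 and 56.8 CPM in DMSO. The groups were tight and did not overlap, with a 1.61-fold difference (edgeR log2 0.68 ± 0.10, SE, adjusted p = 3.45e-05). MICB rose further, to 70.0, 78.6 and 79.7 CPM from 34.6, 27.3 and 27.9 CPM, 2.54-fold (edgeR log2 1.35 ± 0.12, SE, adjusted p = 6.1e-07). MICA and MICB share long stretches of sequence, and the sources used here do not say how reads that fit both were counted, so the split between them is uncertain.

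ULBP2 stood at 10.99, 6.37 and 6.26 CPM in olaparib and at 18.4, 28.8 and 23.8 CPM in DMSO. Olaparib replicate 1 was the highest of its group, as it was for CD274, but remained below every DMSO library. ULBP2 was 3.01-fold lower (edgeR log2 -1.59 ± 0.23, SE, adjusted p = 5.14e-05). ULBP3 fell from 16.6, 14.7 and 13.7 CPM in DMSO to 8.02, 7.71 and 6.55 CPM in olaparib, 2.02-fold (edgeR log2 -1.01 ± 0.16, SE, adjusted p = 9.79e-05). ULBP2 has near-identical relatives in the same cluster, RAET1G and RAET1L, and reads may have been split among them.

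The groups did not overlap for any of the 10 members, where 79.4% of all genes tested did not overlap. A call together with a difference of at least 2-fold was met by 7 members, CD274, PDCD1LG2, CD276 and MICB higher and NECTIN2, ULBP2 and ULBP3 lower, against 47% of all genes. In a stricter test against a 2-fold change, edgeR's glmTreat, 36.8% of all genes were called, and 5 members were, CD274, PDCD1LG2 and MICB higher and NECTIN2 and ULBP2 lower (adjusted p = 0.00873, 0.00148, 0.00456, 1.27e-05 and 0.00937). The low-count filter limits the PDCD1LG2 call in these counts as above.

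**Figure D1:**
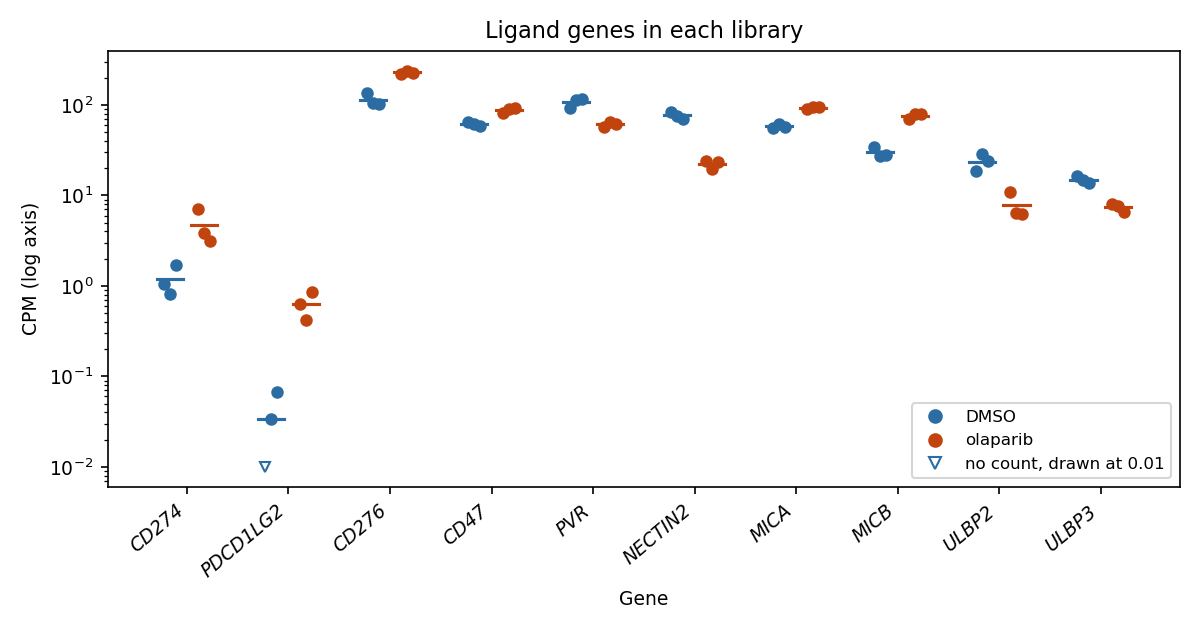
CPM of the 10 ligand genes on a log axis, 1 point per library, with DMSO in blue and olaparib in orange and a line at each group's mean. The groups do not overlap for any gene, and CD274 and PDCD1LG2 have the lowest means in both groups.

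Levels of different genes were compared as CPM per kb of exon, over the union of exons in GENCODE release 29. In DMSO the order began with PVR (30.9 ± 3.72), MICA (24.4 ± 1.49), CD276 (20.6 ± 3.32) and NECTIN2 (20.4 ± 1.86). It went on with ULBP2 (17.6 ± 3.84), ULBP3 (15.2 ± 1.48), MICB (10.7 ± 1.44) and CD47 (7.51 ± 0.435), and ended with CD274 (0.288 ± 0.112) and PDCD1LG2 (0.0143 ± 0.0143). CD276 and NECTIN2 differed by less than the SD of either, and ULBP2 differed from NECTIN2 and from ULBP3 by less than its own SD. In olaparib CD276 (41.2 ± 1.87) and MICA (39.1 ± 1.40) led, within about their spread of each other, followed by MICB (27.2 ± 1.90), PVR (17.4 ± 1.05) and CD47 (10.7 ± 0.812). ULBP3 (7.52 ± 0.788), NECTIN2 (5.96 ± 0.614) and ULBP2 (5.84 ± 2.0) came next, the last of these with a spread that covers both others, and CD274 (1.14 ± 0.501) and PDCD1LG2 (0.268 ± 0.0898) were again last. PVR therefore moved from the first place in DMSO to the fourth in olaparib, and NECTIN2 from the fourth to the seventh. Exon unions count every annotated isoform, so a gene with long or rarely used exons, such as CD47, reads low on this scale.

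On the same scale the summed level of the 4 NKG2D ligands was 78.8, 80.2 and 80.0 CPM per kb in olaparib and 66.1, 71.99 and 65.4 CPM per kb in DMSO. The sum thus differed far less than its parts. ULBP2 and ULBP3 together made up 20.6, 15.6 and 14.1% of it in olaparib and 46.1, 50.3 and 48.3% in DMSO. MICB alone went from 18.7, 13.5 and 15.3% in DMSO to 31.7, 35.0 and 35.6% in olaparib.

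**Figure D2:**
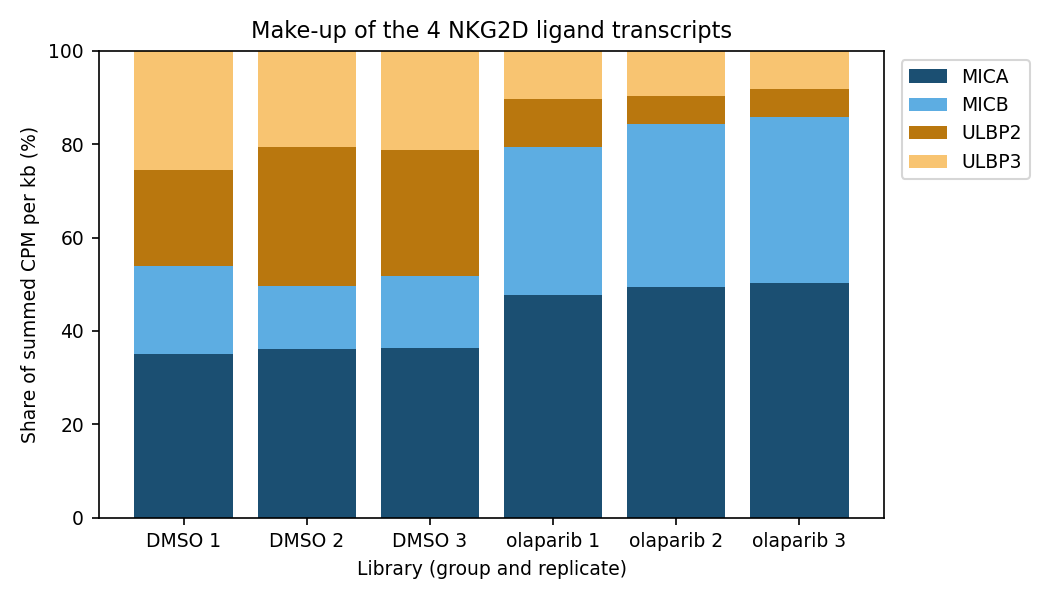
Share of each NKG2D ligand gene in their summed CPM per kb, 1 bar per library. The ULBP2 and ULBP3 segments together take 46.1 to 50.3% in DMSO and 14.1 to 20.6% in olaparib.

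Ratios of 2 genes within a library do not depend on how libraries are scaled. With 3 libraries against 3 the exact two-sided permutation test cannot give less than p = 0.1, and 4 ratios were tested. There were 0.624 MICB counts per MICA count in DMSO replicate 1, 0.439 in replicate 2 and 0.492 in replicate 3, against 0.781, 0.832 and 0.831 in olaparib. MICB thus gained on MICA by 0.67 on the log2 scale, with no overlap (exact permutation p = 0.1, adjusted p = 0.133). NECTIN2 lost against PVR by -0.95 (log2), from 0.891, 0.667 and 0.591 NECTIN2 counts per PVR count in DMSO to 0.421, 0.306 and 0.377 in olaparib, also without overlap (exact permutation p = 0.1, adjusted p = 0.133).

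PDCD1LG2 gained on CD274 by 2.16 (log2, with 0.5 counts added because DMSO replicate 1 held none), without overlap and with the same p-values (exact permutation p = 0.1, adjusted p = 0.133). This difference was 1.41 without DMSO replicate 1. PDCD1LG2 held 0, 1 and 3 counts in the DMSO libraries and passed the low-count filter only through the olaparib libraries. A gain of PDCD1LG2 was thus favoured from the start, and no conclusion is drawn from this ratio. The ratio of ULBP3 to ULBP2 overlapped between the groups. It was 0.730, 1.21 and 1.05 in olaparib and 0.900, 0.509 and 0.575 in DMSO, a log2 difference of 0.60 (exact permutation p = 0.2, adjusted p = 0.2).

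**Figure D3:**
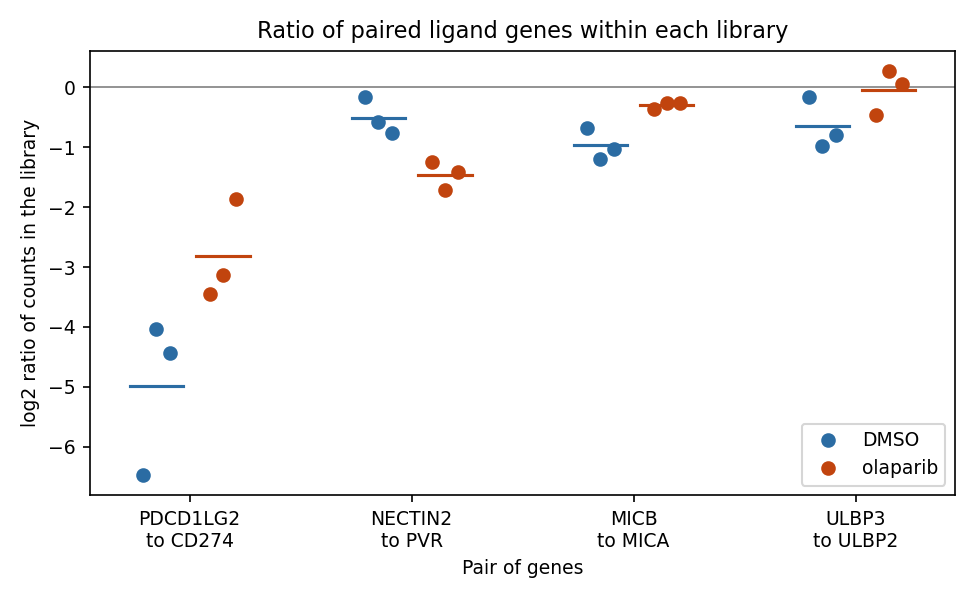
Log2 ratio of the counts of 2 ligand genes in each library, with a line at each group's mean, DMSO in blue and olaparib in orange. The groups separate for the first 3 pairs and overlap for ULBP3 to ULBP2. PDCD1LG2 passed the low-count filter only through olaparib, which limits its pair.

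The members sit in 6 places in the genome (hg38, positions from GENCODE 29), and 4 of these hold a pair whose genes moved in the same direction. CD274 (chr9:5450503-5470566) and PDCD1LG2 (chr9:5510570-5571254) lie 40004 bases apart on chromosome 9. PVR (chr19:44643798-44663583) and NECTIN2 (chr19:44846175-44889228) are separated by 183 kb on chromosome 19. On chromosome 6, MICA (chr6:31399784-31415315) and MICB (chr6:31494881-31511124) lie 79.6 kb apart in the MHC region, and ULBP2 (chr6:149942000-149949235) and ULBP3 (chr6:150063150-150069095) lie 114 kb apart on the long arm. CD276 (chr15:73683966-73714518) and CD47 (chr3:108043094-108091862) stand alone. The genes of a pair share most of their neighbours, so their neighbourhoods are not independent.

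Other protein-coding genes within 1 Mb were taken as neighbours, leaving members out. Around CD274, 12 of 17 tested neighbours were higher, 4 lower and 1 not called, with a median log2 fold change of 0.96. They included JAK2, a kinase of interferon signalling (15.3 ± 0.742 against 8.14 ± 0.375 CPM, edgeR log2 0.91 ± 0.15, SE, adjusted p = 0.000106). The nearest tested gene on each side went in opposite directions, with PLGRKT at log2 -1.97 and RIC1 at 1.43. The value of CD274 was exceeded by 4 of these 17.

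Around ULBP2 and ULBP3, 11 of 17 neighbours were lower, 2 higher and 4 not called, and the median of -1.06 was close to the -1.01 of ULBP3 itself. ULBP1, the nearest tested gene beside ULBP2, was at 4.52 ± 0.532 CPM in olaparib and 4.29 ± 0.729 CPM in DMSO (edgeR log2 0.08 ± 0.22, SE, adjusted p = 0.761), and RAET1G on its other side was lower (edgeR log2 -1.31 ± 0.34, SE, adjusted p = 0.00419). NECTIN2 lay between a pair of genes with nearly its own value, BCAM at log2 -1.85 and TOMM40 at -1.79, while the median over all 56 neighbours was -0.08. For PVR, 17 of 49 neighbours were lower, 13 higher and 19 not called.

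Around MICA, 32 of 72 neighbours were higher and 22 lower, with a median of 0.19. HLA-B, on the side of MICA, was higher (log2 1.39) and DDX39B, next to MICB, was not called (0.08). CD276 moved against its surroundings, where 11 of 19 neighbours were lower and 6 higher, with a median of -0.62. CD47 had only 5 tested neighbours, 2 higher, 1 lower and 2 not called. No test was made of a member against its own region. Exons shared with another gene were few: 121 bases of PVR with CEACAM19 and 62 bases of MICA with HCP5, both on the same strand, and 128 bases of NECTIN2 with an antisense gene.

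**Figure D4:**
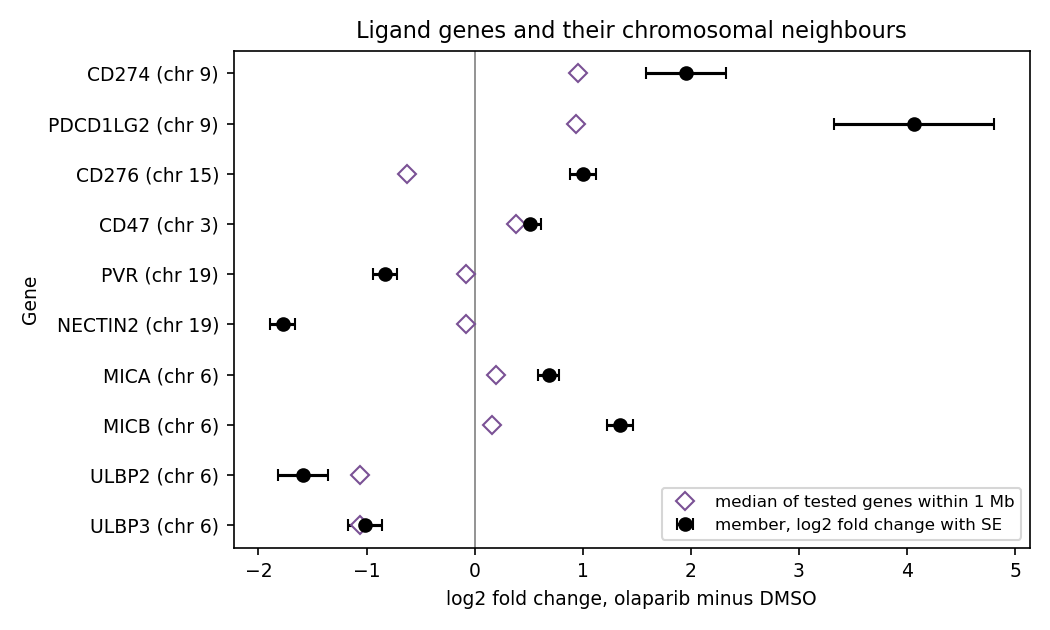
Log2 fold change of each ligand gene with its SE (black) and the median of the tested protein-coding genes within 1 Mb (open diamonds). For ULBP3 and CD47 the median lies near the gene, whereas for CD276 it lies on the other side of 0.

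Other ligands of T cell checkpoint and costimulatory receptors were counted from a list of 25, of which 16 were tested. In olaparib 8 were higher, 4 lower and 4 not called (75.0% called), with a median log2 fold change of 0.48 beside -0.09 over all genes. TNFRSF14, the ligand of BTLA, stood at 32.6 ± 4.56 against 0.698 ± 0.201 CPM, BTN3A3, a butyrophilin, at 47.8 ± 0.930 against 3.17 ± 1.28 CPM, and VSIR (VISTA) at 19.0 ± 2.41 against 1.59 ± 0.548 CPM. No read of CD40, a costimulatory receptor of antigen-presenting cells, was counted in the olaparib libraries, while DMSO held 8.32 ± 0.526 CPM, which makes it at least 243-fold lower when 3 counts over the group are taken as the floor. CD80 and BTNL2 had no count in any library. CD86 held 40 counts in olaparib and none in DMSO and was not tested.

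Among 19 further NK cell ligands 17 were tested, with 8 higher, 4 lower, 5 not called and a median of 0.51. ICAM1, the adhesion ligand of LFA-1, was at 60.2 ± 3.44 against 2.32 ± 1.18 CPM, and CLEC2B, the ligand of NKp80, at 22.8 ± 6.23 against 2.01 ± 0.143 CPM. CADM1, bound by CRTAM, was lower (5.18 ± 2.005 against 47.4 ± 5.54 CPM), and PDGFD, bound by NKp44, was higher at a low level (1.86 ± 0.432 against 0.426 ± 0.299 CPM). PDGFD passed the filter on low counts only through the olaparib libraries, so its call supports no count of ligands. Within the nectin family, NECTIN1 was lower like its relatives PVR and NECTIN2 (edgeR log2 -1.79 ± 0.14, SE, adjusted p = 2.1e-07), but NECTIN3 was higher (0.66 ± 0.11, adjusted p = 0.000114). These 2 nectins were picked out after their values were seen.

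Of 6 genes tied to phagocytosis, 3 were higher, 2 lower and 1 not called (median 0.16). THBS1, a ligand of CD47, stood at 91.7 ± 9.65 against 6.12 ± 1.29 CPM, and B2M, the light chain of MHC class I, at 1865 ± 139 against 966 ± 164 CPM. CD24, which signals through Siglec-10, was lower (15.2 ± 1.16 against 49.6 ± 3.13 CPM), as was STC1 (0.185 ± 0.265 against 1.93 ± 0.796 CPM). STC1 passed the filter on low counts only through the DMSO libraries, so its call supports no count of these genes.

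The receptors of these ligands belong mainly to blood cells, and only 7 of 17 were tested, with 5 higher, 1 lower and 1 not called (median 1.52). KLRK1, which encodes NKG2D, held 2 counts in each group, PDCD1 (PD-1) 1 in olaparib and 9 in DMSO, and TIGIT 2 and 12. SIRPA, the receptor of CD47, was lower in olaparib at 0.275 ± 0.0732 against 10.8 ± 2.07 CPM. The PVR receptors CD226 (2.49 ± 0.401 against 0.418 ± 0.0951 CPM) and CD96 were higher. CD96 held 230 counts in olaparib and 2 in DMSO, a ratio of 152 (95% exact counting interval 41.7 to 1266). CD96 passed the filter on low counts only through the olaparib libraries, so a difference in its favour there was built in. Its call therefore supports no count of receptors. HAVCR2 (TIM-3) was also higher, at 1.96 ± 0.291 against 0.208 ± 0.0748 CPM. HAVCR2 likewise passed the filter only through the olaparib libraries, and SIRPA only through the DMSO libraries. Their calls, too, support no count of receptors.

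Of 12 immune cell markers 5 were tested, 1 higher, 2 lower and 2 not called, and their summed level ran from 4.61 to 5.49 CPM in olaparib and from 7.44 to 10.4 CPM in DMSO. CD3D and CD3E had no count in any library, and PTPRC, the pan-leukocyte marker CD45, held 20 counts in olaparib and 2 in DMSO. The called markers were CD4, higher (1.07 ± 0.0768 against 0.290 ± 0.348 CPM), ITGAM, lower (0.254 ± 0.219 against 1.97 ± 0.375 CPM), and CD8A, lower, with 2 counts in olaparib and 321 in DMSO (ratio 0.00826, 95% exact counting interval 0.000996 to 0.0301). CD8A and ITGAM passed the filter on low counts only through the DMSO libraries, and CD4 only through the olaparib libraries. For each, a difference in favour of the group it passed through was built in. These calls support no count of immune cell markers. Of 11 colon epithelium markers 5 were tested, 3 higher, 1 lower (CDX2) and 1 not called. Their summed level, mostly KRT8 and KRT18, was 807 to 1089 CPM in olaparib and 242 to 311 CPM in DMSO. Of 10 fibroblast and endothelial markers 9 were tested, 3 higher, 4 lower and 2 not called, with sums of 125 to 160 against 91.1 to 99.0 CPM that were mostly COL1A1 (113 ± 18.4 against 68.4 ± 3.39 CPM). Within that list the endothelial cadherin CDH5 was higher (20.5 ± 0.106 against 0.128 ± 0.182 CPM) and the matrix gene LUM lower (0.209 ± 0.142 against 18.9 ± 0.876 CPM). The other endothelial markers were split. PECAM1 was higher (2.51 ± 0.973 against 0.409 ± 0.222 CPM), KDR lower (4 against 80 counts) and VWF not called. CDH5 and PECAM1 passed the filter only through the olaparib libraries, and LUM and KDR only through the DMSO libraries. Their calls carry the same limit. The part of these marker differences in the values of the ligands was not tested.

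A list of 34 genes with a known part in the control of PD-L1 was tested in full, with 14 higher, 12 lower and 8 not called (76.5% called) and a median of 0.01. The interferon pathway did not move as 1 block. JAK1 (255 ± 1.77 against 165 ± 23.3 CPM) and the transcription factor IRF1 (28.7 ± 2.26 against 13.9 ± 2.23 CPM) were higher, as JAK2 was, whereas the receptor chain IFNGR1 (35.8 ± 3.93 against 46.5 ± 2.84 CPM) was lower. CMTM6, which keeps PD-L1 protein at the cell surface, was 5.19-fold lower (32.6 ± 1.69 against 169 ± 7.33 CPM, edgeR log2 -2.38 ± 0.10, SE, adjusted p = 1.32e-09), opposite in direction to the CD274 transcript. B3GNT3, a glycosyltransferase that acts on PD-L1, and SOCS3 were higher (log2 3.47 ± 0.22 and 2.73 ± 0.19, SE), and SOCS1, an inhibitor of JAK kinases, was lower (-2.61 ± 0.44).

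For NKG2D ligands, 16 of 17 genes of induction and shedding were tested, with 5 higher, 4 lower and 7 not called (56.3% called, median 0.07). ADAM10, a protease that sheds MIC proteins, stood at 142 ± 3.995 against 54.4 ± 5.50 CPM (edgeR log2 1.39 ± 0.10, SE, adjusted p = 1.46e-07). ADAM17, another such protease, was at 43.6 ± 4.08 against 37.0 ± 3.97 CPM and was not called (edgeR log2 0.23 ± 0.12, SE, adjusted p = 0.0905). MMP14, also a MICA sheddase, was at 65.1 ± 2.63 against 1.69 ± 0.452 CPM. Of the damage signalling genes that act upstream of these ligands, ATM was higher (320 ± 1.46 against 55.5 ± 12.2 CPM), as was ATR (108 ± 4.65 against 35.8 ± 5.41 CPM). Transcript levels do not show how much of a ligand is at the cell surface, which was not measured.

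**Figure D5:**
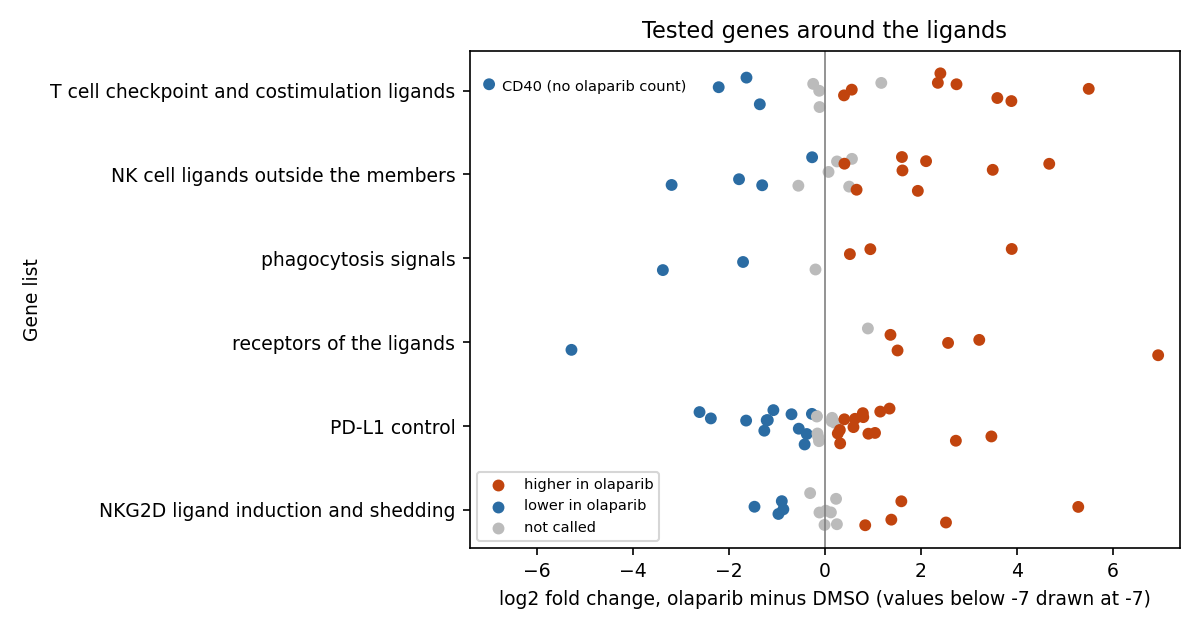
Log2 fold change of each tested gene in 6 lists around the ligands, coloured by whether it was higher, lower or not called in olaparib. Each list except that of the receptors holds at least 2 called genes on either side of 0, and the receptors hold SIRPA alone below it. Some called genes, such as SIRPA and STC1, passed the low-count filter only through the group where they are higher.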

How the data were processed

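The authors deposited raw read counts per gene symbol for 6 libraries. Reads had been processed with fastp and STAR on hg38, per the submitters' processing notes. No source used here names the counting program, the strand setting or the annotation. Groups came from the sample titles, which match the columns. The test was edgeR 4.0.16 under R 4.3.3, as a robust quasi-likelihood fit with group as its only term, after TMM scaling and the default filter on low counts, with Benjamini-Hochberg adjustment over 17078 genes and a threshold of 0.05, after a check on simulated data. CPM use the TMM-scaled library size. SEs were derived from the F statistic. Alternatives were limma 3.58.1 (voom), DESeq2 1.42.0, other scalings and filters, counts divided by 2, a replicate block, glmTreat and the loss of each library.

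The members, the 10 lists and the tests were chosen with earlier results of these data known. Named genes were the members, 10 genes fixed by name, up to 4 called genes per list with the largest fold and at least 1 CPM in a group, and nearest neighbours; some are not reported here, and genes beyond this rule were picked after their values were seen. No libraries of a group agreed to within sampling noise (chi-square per degree of freedom 4.74 to 68.6). Reads from paralogs, antisense partners and overlapping genes cannot be separated. Counting intervals cover counting error only. Listed genes with almost no counts in a group, such as CD40, CDX2 and the HEK293 markers, passed the filter only through the other group. So did others with few counts in a group, such as STC1, PDGFD and SOCS1. Their calls carry the same limit as that of PDCD1LG2. Protein sequences were not used here.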

Additional observations from a re-analysis of the deposited data

How the results depend on the processing

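All 10 members kept their direction under every alternative that tested them, and their call under all but the test against a 2-fold change. PDCD1LG2 was not tested with at least 1 CPM in at least 3 libraries or with counts divided by 2. The test against a 2-fold change called 3 members higher and 2 lower, and 2930 genes higher and 3356 lower, because it asks for a larger difference. CD276 (adjusted p = 0.507), ULBP3 (adjusted p = 0.482), CD47, PVR and MICA (adjusted p = 1 each) did not pass it. Without each library in turn, 6 members stayed higher and 4 lower, and the counts of all genes ran from 5711 to 6191 higher and from 6586 to 7017 lower. Across those 6 fits CD274 ran from 1.55 to 2.30 and PDCD1LG2 from 3.46 to 5.13 (log2), and leaving out 1 library turned the sign of none of the 4 ratios. Same-numbered replicates did not deviate together (correlations of -0.18, -0.133 and -0.011), so these values gave no sign of a pairing by number. With 3 libraries per group, each taken against its group's mean, they cannot exclude one. With the replicate block 5797 genes were higher and 6629 lower, and 6 and 4 members, as without it. Counts of PDCD1LG2 in DMSO (4 in all) limit its fold to an order of size.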
